A study of Mus musculus with 2 samples.

Results

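Migratory dendritic cells are dendritic cells that have matured in a tissue and carry the machinery to leave it for the draining lymph node. They were examined with droplet single-cell RNA sequencing in the mouse prostate, where 1 library came from a tumour and 1 from the normal tissue beside it (normal adjacent). The labels describe the cells of both libraries as CD45+ and epithelial; CD45+ and CD45- fractions were sorted after enzymatic digestion and loaded in the same channel. The labels name no strain, genotype, age or tumour model, and do not say how many animals gave each library. Each tissue is represented by 1 library, so differences between tumour and normal adjacent tissue have no replicate check, no p-value is given, and every interval is a 95% interval for counting error only.

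The cells were selected on measured transcripts. A retained barcode (at least 200 genes, at most 20% mitochondrial UMIs) was a member when it held at least 2 UMIs each of Ccr7 and Fscn1 and at least 5 of Cd74. C1qa, C1qb and C1qc together had to stay under 0.2% of its UMIs, and the Cd3 chains together and Cd79a could each reach at most 1 UMI. This gave 59 of 6209 retained cells in the normal adjacent library and 96 of 7768 in the tumour library, 155 of 13977 in all. Of the members, 28 and 40 also held at least 3 UMIs of Cd209a, Flt3 and Clec10a together. They were set against other dendritic cells, 189 and 288 cells that held at least 3 UMIs of Cd209a, Flt3 and Clec10a together, at most 1 of Fscn1, and passed the same exclusions.

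On maturation, a dendritic cell stops sampling its surroundings, loads peptides on MHC molecules and acquires the chemokine receptor Ccr7, which guides it along gradients of Ccl19 and Ccl21 toward lymphatic vessels and T cell zones. Fscn1 encodes fascin, which bundles actin in the long processes of mature dendritic cells. Signalling through the noncanonical NF-kappaB subunit Relb is part of this program. In tumours such cells have drawn interest because they express both T cell stimulating genes and checkpoint ligands.

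Promoters of 4 genes that were high in the members are shown because Relb, an NF-kappaB subunit, was among the markers of these cells. The sequences are from RefSeq on GRCm38.p6, 300 bases around each gene start, 5′ to 3′ on the gene's strand. Capitals mark matches on either strand to an NF-kappaB core of 3 G, any 5 bases and 2 C, and overlapping matches run together.

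Fscn1, chr5:142960105-142960404, plus strand: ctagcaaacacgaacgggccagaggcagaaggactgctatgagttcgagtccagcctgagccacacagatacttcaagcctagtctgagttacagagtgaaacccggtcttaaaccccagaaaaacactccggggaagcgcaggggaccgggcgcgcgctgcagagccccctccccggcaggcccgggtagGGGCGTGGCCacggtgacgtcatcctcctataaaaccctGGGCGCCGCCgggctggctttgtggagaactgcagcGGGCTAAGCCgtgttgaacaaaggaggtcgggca

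Ccl22, chr8:94745434-94745733, plus strand: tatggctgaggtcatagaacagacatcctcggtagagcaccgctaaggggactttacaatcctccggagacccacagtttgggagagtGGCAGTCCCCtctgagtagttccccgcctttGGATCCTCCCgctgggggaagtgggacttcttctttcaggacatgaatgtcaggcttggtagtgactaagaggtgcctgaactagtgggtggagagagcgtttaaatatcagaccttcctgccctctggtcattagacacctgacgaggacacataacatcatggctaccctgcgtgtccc

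Il4i1, chr7:44836038-44836337, plus strand: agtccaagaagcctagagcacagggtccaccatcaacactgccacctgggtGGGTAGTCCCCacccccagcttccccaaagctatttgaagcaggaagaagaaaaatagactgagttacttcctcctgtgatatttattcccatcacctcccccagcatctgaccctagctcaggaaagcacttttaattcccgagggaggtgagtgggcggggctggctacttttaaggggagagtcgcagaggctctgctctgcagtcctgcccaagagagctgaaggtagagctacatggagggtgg

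H2-M2, chr17:37483505-37483804, minus strand: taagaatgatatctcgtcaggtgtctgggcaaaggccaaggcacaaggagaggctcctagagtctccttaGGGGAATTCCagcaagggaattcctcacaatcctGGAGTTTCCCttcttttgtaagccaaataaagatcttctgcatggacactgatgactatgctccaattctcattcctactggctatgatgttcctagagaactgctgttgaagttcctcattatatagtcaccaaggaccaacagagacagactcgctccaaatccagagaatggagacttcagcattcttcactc

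The table held promoters for 4 of the 6 marker genes, in 5 records, and all 5 records had at least 1 match. Of all 32851 promoters of this length, 50.8% had a match. Among maturation genes that were at least 2-fold higher in the members in both libraries, 18 of 25 records matched. Among the named genes that ranked highest against other dendritic cells, 12 of 19 records did, H2-M2 included, while the records of Cd200, Serpinb6b, Tcf7 and Tnfrsf4 had none. Among antigen uptake genes that were at least 2-fold lower, 9 of 15 did. A match of these letters is a description of the sequence and does not show binding.

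The members were deeply sampled. Their median was 12737 UMIs per cell in normal adjacent tissue and 12364 in tumour, against 14992 and 13000 in other dendritic cells, and their summed counts were 811225 and 1255221 UMIs. The highest member held 27439 UMIs in normal adjacent tissue and 38839 in tumour. The libraries shared 18 barcodes, of which 1 was a member. Median mitochondrial shares were 1.87% and 2.47%.

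Members made up 0.950% of retained normal adjacent cells (exact binomial interval 0.724 to 1.22) and 1.24% of retained tumour cells (1.00 to 1.51). The difference was 0.286 percentage points, with an interval of -0.0671 to 0.630. Among gated dendritic cells the shares were 23.8% of 248 and 25.0% of 384, a difference of 1.21 points (-5.77 to 7.89). Both intervals include 0, so a difference in share was not detectable at this depth. The sort and the loading of both fractions in 1 channel also set these shares.

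Before the exclusions, 102 normal adjacent and 153 tumour cells held 2 UMIs or more of both Ccr7 and Fscn1. Of these, 43 and 57 were not members. Cd3 transcripts were the most common reason, in 31 and 44 cells, followed by C1q transcripts in 25 and 40, and a cell could fail on several counts. At the edge of the rule, 2 normal adjacent and 9 tumour members had Ccr7 or Fscn1 at exactly 2 UMIs, and 8 and 6 cells outside had both genes with at least 1 of them at 1 UMI. In the tumour library Relb was at 390 CPM (UMIs scaled to a common class total) just inside and 61.8 CPM just outside, but Ccl22 was at 232 and 210 CPM. In the normal adjacent library Relb was at 231 and 163 CPM, Cacnb3 at 0 and 25.1 CPM, and Ccl5 at 1425 and 1809 CPM. Cells on either side of the limit were thus not separated by every marker.

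The rule genes themselves describe the selection. Ccr7 ranged in single normal adjacent members from 1.27 to 113 UMIs per 10000 with a median of 48.5, and in tumour members from 1.62 to 132 with a median of 45.6. Fscn1 ranged from 1.86 to 56.9 (median 25.2) and from 0.553 to 91.7 (median 18.7). Other dendritic cells held 391.6 and 477.5 CPM of Ccr7, against 4583 and 4314 CPM in members, while Fscn1 was limited to 1 UMI there by the rule.

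The markers not used to gate the cells were present in most of them. Relb had a UMI in 59 of 59 normal adjacent and 95 of 96 tumour members, at medians of 4.71 and 5.50 per 10000. Il4i1, a secreted amino acid oxidase that restrains T cells, was detected in 52 and 79 members. Cacnb3, a calcium channel subunit and a known marker of this state, was detected in 51 and 83. Ccl22, a chemokine that attracts Ccr4-bearing T cells, was detected in 46 and 79 members, and its highest cell held 63.2 per 10000 in normal adjacent tissue and 33.8 in tumour.

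**Figure D1:**
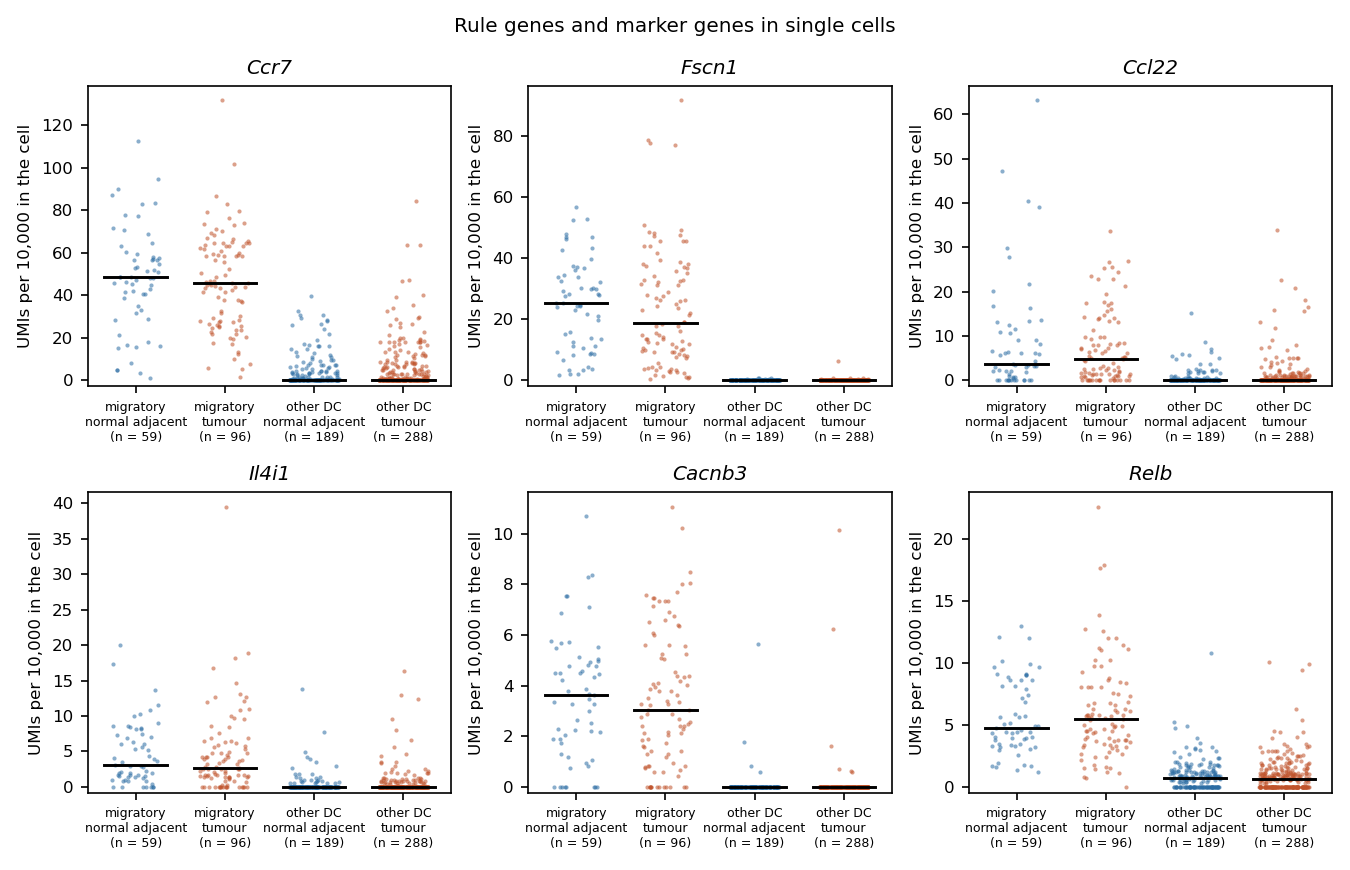
Levels of the 6 marker genes in single cells, as UMIs per 10000 UMIs of the cell (vertical axis), for migratory and other dendritic cells of each library. Each point is a cell and each bar the median; Fscn1 and Ccr7 were used to choose the cells, while Relb was detected in 59 of 59 and 95 of 96 members.

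The contrast of members with other dendritic cells follows from the rule and is given as a description, with no test. Of 8310 genes with at least 50 UMIs over both classes and libraries, 672 (8.09%) were at least 2-fold higher in members in both libraries and 1059 (12.7%) were at least 2-fold lower. The median log2 ratio over all these genes was -0.14 in normal adjacent tissue and -0.10 in tumour. Scaling by the median ratio instead of total UMIs removes that shift and gives 793 higher and 886 lower genes.

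Maturation genes were high throughout. Of 23 measured members of the list, 22 were at least 2-fold higher in both libraries, beside a background of 8.09%, and the list's median log2 ratios were 3.61 and 3.30. The list was chosen with earlier results of these data known. The exception was Cd83, a surface marker of mature dendritic cells, at 1.32 times (1.20 to 1.45) and 1.42 times (1.32 to 1.53) the level of other dendritic cells. Nudt17 stood at 312 and 247 CPM in members against 4.73 and 2.13 CPM, ratios of 65.9 (38.5 to 122) and 116 (60.2 to 256). Zmynd15 stood at 950 and 841 CPM, 65.4 and 32.2 times the level of other dendritic cells. Serpinb6b, a serine protease inhibitor, was 22.3-fold and 22.8-fold higher.

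H2-M2, a nonclassical MHC class I gene, was among the most unequal. It was found in 24 of 59 and 37 of 96 members, with highest cells of 16.8 and 31.5 per 10000 and medians of 0. Other dendritic cells held 3 UMIs in each library, which gave ratios of 132 (44.1 to 652) and 220 (74.0 to 1074). Apol7c, an apolipoprotein L family gene, had a UMI in 14 and 17 members, and 1 tumour cell held 43.1% of its tumour UMIs. Both genes were thus detected in a minority of members.

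**Figure D2:**
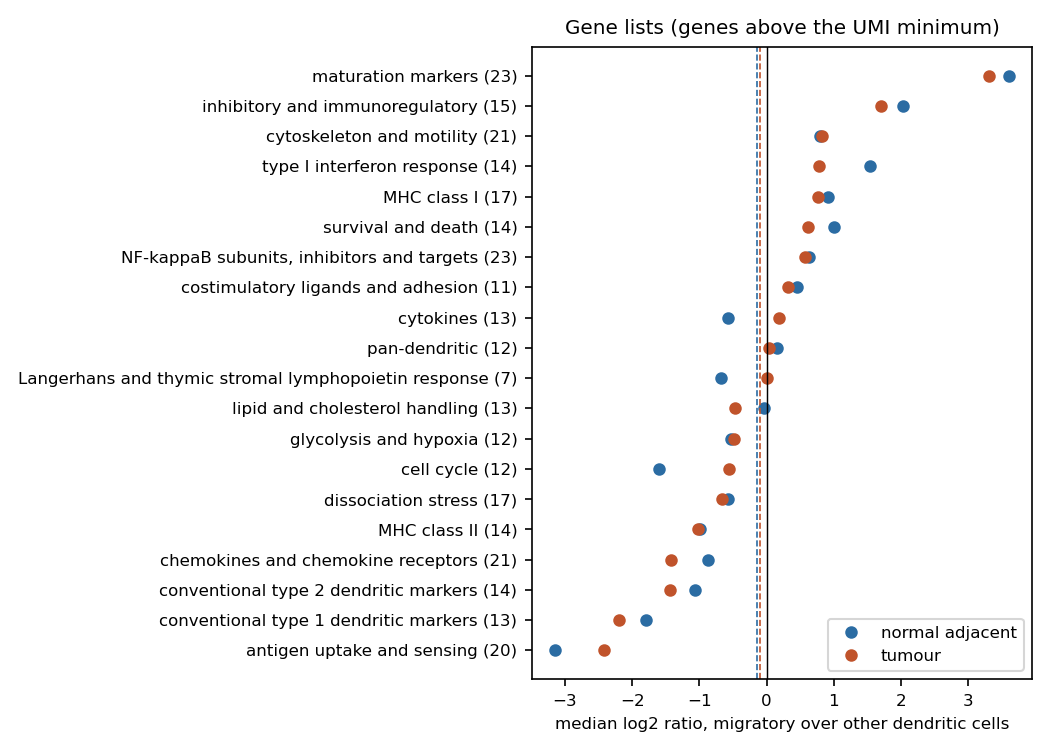
Median log2 ratio of each gene list, migratory over other dendritic cells (horizontal axis), with the number of genes above the 50-UMI minimum in parentheses; dashed lines mark the median of all 8310 genes in each library. Maturation genes lie highest at 3.61 and 3.30, and antigen uptake genes lowest at -3.15 and -2.42.

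Among chemokines and their receptors, 4 of 21 measured genes were higher in both libraries (Ccr7, Ccl22, Ccl5 and Cxcl16) and 10 were lower, beside backgrounds of 8.09% and 12.7%. Ccr7 is among the 4 by selection. Ccl5, which attracts effector T cells and NK cells, reached 9508 and 7162 CPM in members against 258 and 193 CPM in other dendritic cells. It ranged from 0.464 to 669 per 10000 in normal adjacent members (median 66.8) and from 0 to 544 in tumour members (median 52.3). After each cell was thinned to 2000 UMIs, Ccl5 was detected in 91.4% and 88.4% of members, against 24.0% and 11.4% of B cells, which served as a class that should lack it. Median depths before thinning were 4950 and 5145 UMIs in those B cells. Gated T cells held 4998 and 4012 CPM of Ccl5, below the members' level.

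Ccl17, which shares the receptor Ccr4 with Ccl22, was higher by level in members of normal adjacent tissue, by less than 2-fold, and not in tumour. Members held 409 and 352 CPM, other dendritic cells 252 and 352 CPM, ratios of 1.62 (1.42 to 1.85) and 1.00 (0.897 to 1.11). It was spread over more cells in the members, with a UMI in 34 of 59 and 48 of 96, against 24.9% and 28.5% of other dendritic cells. Of the Ccl17-positive members, 32 of 34 and 47 of 48 also held Ccl22. Receptors of tissue recruitment were low: Ccr2, the monocyte receptor for Ccl2, had 3 and 15 UMIs in members and ratios of 0.0153 (0.00315 to 0.0449) and 0.0542 (0.0302 to 0.0899). Ccr1, a receptor for inflammatory chemokines, was at 0.112 and 0.131 times the level of other dendritic cells.

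The ligands of Ccr7 were scarce among the sampled cells. Ccl19 counted 85 UMIs in 35 retained normal adjacent cells and 80 UMIs in 33 tumour cells, and Ccl21a 7 UMIs in 3 cells and 155 UMIs in 5. Both symbols are carried by 2 gene entries in the files, and the second entry of each had no UMI, so reads shared between near-identical copies cannot be assigned with certainty. Ccr4, the receptor for Ccl17 and Ccl22, was at 13.9 and 18.0 CPM in gated T cells and had no UMI in members.

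Of 13 measured cytokine genes, Il12b, Il15 and Il15ra were at least 2-fold higher in both libraries and 2 were lower, beside backgrounds of 8.09% and 12.7%, so the lower share was near the background. Il12b encodes the p40 chain shared by interleukins 12 and 23. It was at 1463 and 1187 CPM in members against 69.7 and 112 CPM, ratios of 21.0 (18.1 to 24.5) and 10.6 (9.56 to 11.8). Single cells ranged from 0 to 108 per 10000 (median 3.77) in normal adjacent tissue, where 1 cell held 20.2% of the UMIs, and from 0 to 90.2 (median 4.04) in tumour. Thinned to 2000 UMIs, Il12b was detected in 46.6% and 53.7% of members, 2.72% and 4.56% of other dendritic cells, and 0.685% and 0% of B cells. Il15 and its presenting receptor Il15ra, which sustain memory T and NK cells, were also higher: Il15 by 12.03-fold and 9.91-fold and Il15ra by 22.1-fold and 39.1-fold.

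**Figure D3:**
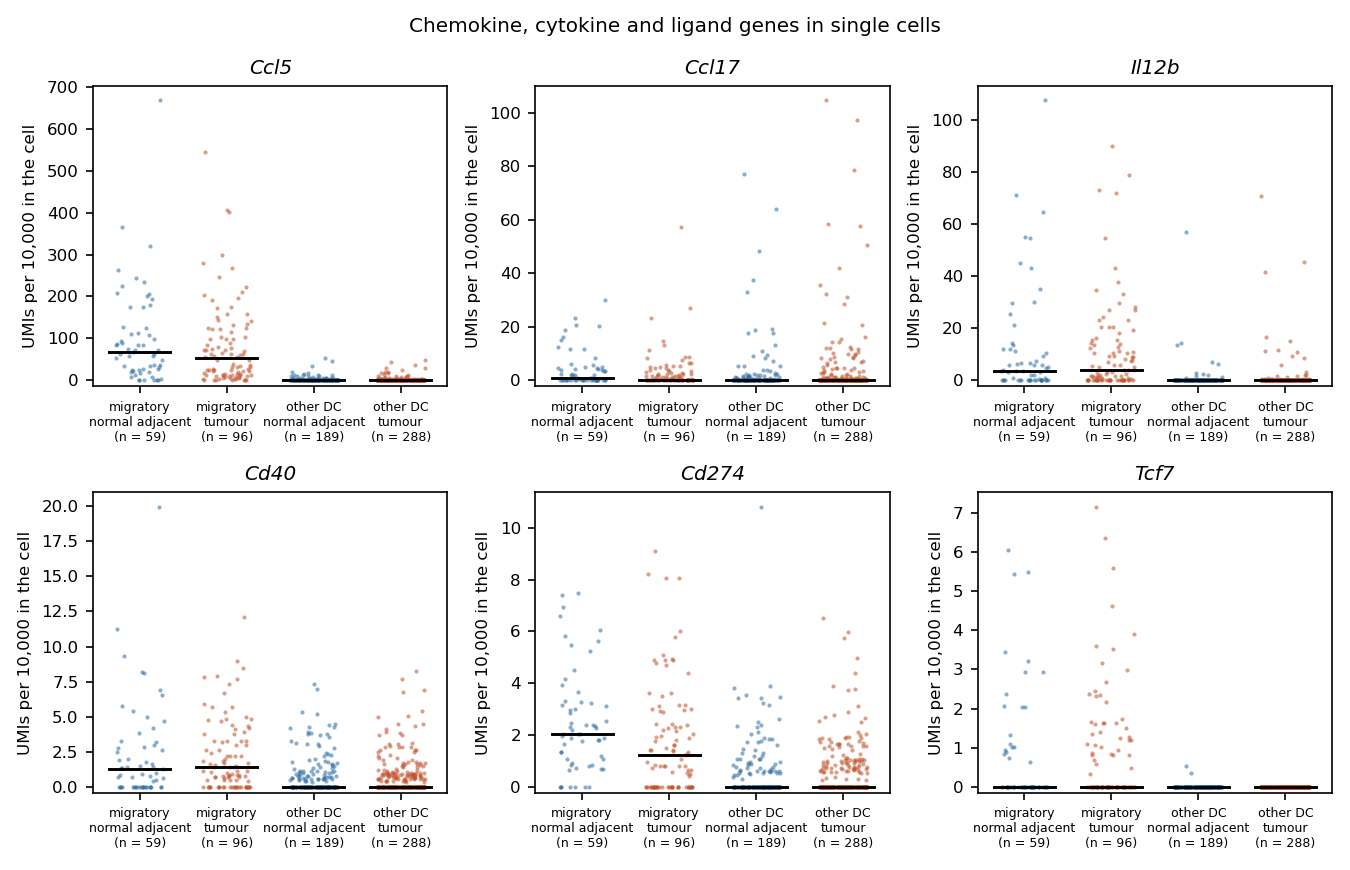
Single-cell levels of Ccl5, Ccl17, Il12b, Cd40, Cd274 and Tcf7 as UMIs per 10000 UMIs of the cell (vertical axis) in migratory and other dendritic cells of each library; points are cells, bars medians. Ccl5 lies high in most members (medians 66.8 and 52.3), Ccl17 overlaps between classes, and Tcf7 has a UMI in 20 of 59 and 41 of 96 members.

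Costimulation was not uniformly high. Of 11 measured ligands and adhesion genes, Cd40, Tnfsf4 and Cd70 were at least 2-fold higher in both libraries and Cd48 was lower, beside backgrounds of 8.09% and 12.7%. Cd40, through which helper T cells license dendritic cells, was at 256 and 210 CPM in members and 70.3 and 63.1 CPM in other dendritic cells, 3.65-fold and 3.32-fold. Cd70, the ligand of Cd27, was 20.8-fold (9.23 to 55.1) and 30.8-fold (13.3 to 87.5) higher. The main ligands of Cd28 differed little: Cd80 was 1.82-fold (1.46 to 2.27) and 1.245-fold (1.02 to 1.51) higher, and Cd86 stood at 1.245 times (1.08 to 1.43) and 0.804 times (0.707 to 0.911).

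Inhibitory and immunoregulatory genes divided into a higher and a lower group. Of 15 measured, 8 were higher in both libraries (Cd274, Pdcd1lg2, Cd200, Fas, Il4i1, Aldh1a2, Socs1 and Socs2) and 4 were lower (Havcr2, Lgals9, Tgfb1 and Vsir), beside backgrounds of 8.09% and 12.7%. Cd274, which encodes PD-L1, was at 246 and 184 CPM in members against 50.4 and 56.4 CPM, 4.89-fold (3.94 to 6.09) and 3.26-fold (2.71 to 3.92). It was not particular to the members, since gated neutrophils held 356 and 251 CPM. Pdcd1lg2, which encodes PD-L2, was 5.43-fold and 7.58-fold higher. Cd200, a ligand that restrains myeloid cells, was 41.6-fold (26.9 to 67.6) and 36.2-fold (24.6 to 55.5) higher. Socs2, a suppressor of cytokine signalling, was 55.3-fold and 32.4-fold higher. Aldh1a2, which makes retinoic acid, was 5.81-fold and 3.97-fold higher, and Il10 had 1 UMI in each library's members.

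The NF-kappaB list had 7 of 23 genes higher in both libraries: Relb, Nfkb2, Nfkbib, Traf1, Traf3, Cd40 and Tnfrsf9, beside a background of 8.09%. Relb was 6.01-fold (5.14 to 7.03) and 6.33-fold (5.57 to 7.20) higher, and its partner Nfkb2 2.40-fold and 2.38-fold. Bcl3, an atypical inhibitor family member, was the one lower gene, at 0.408 and 0.274 times the level of other dendritic cells. Among survival genes, Birc2 was 4.34-fold and 5.56-fold higher and Bcl2 was lower, with 1 and 7 UMIs in members. Bcl2a1b, also higher, has near-identical copies, so its count is uncertain.

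The motility list had 8 of 21 genes higher, 1 of them Fscn1 by selection, and Vim and Coro1a lower, beside backgrounds of 8.09% and 12.7%. Beyond Fscn1, Marcks, which links actin to the membrane, was 4.27-fold and 3.89-fold higher with medians of 14.5 and 15.6 per 10000 in members. Vim, which encodes vimentin, was at 0.404 and 0.405 times the level of other dendritic cells.

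Antigen uptake and sensing genes were low in the members. Of 20 measured, 18 were at least 2-fold lower in both libraries, beside a background of 12.7%, and none was higher. The rule for other dendritic cells used Cd209a and Clec10a, which belong to this list. Monocyte and macrophage markers moved with it. At least 3 UMIs of monocyte markers were held by 59.8% and 55.6% of other dendritic cells and by 10.2% and 11.5% of members, at summed levels of 1115 and 790 CPM against 133 and 81.3 CPM. For macrophage markers the shares were 45.5% and 49.0% against 27.1% and 28.1%. Their part in the lower uptake genes was not tested. Lyz2, which encodes lysozyme, was at 102 and 107 CPM in members against 1384 and 1548 CPM, 0.0739 times (0.0587 to 0.0919) and 0.0690 times (0.0577 to 0.0819). Mrc1, the mannose receptor, had 0 UMIs in normal adjacent members, at least 12.5-fold lower against a floor of 3 counts over the class, and 11 UMIs in tumour members.

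MHC class II genes were lower and some class I genes higher in the members. Of 14 measured class II genes, 7 were at least 2-fold lower in both libraries, beside a background of 12.7%, and none was higher. H2-Ab1, a class II beta chain, was at 3434 and 4672 CPM against 10264 and 11890 CPM, 0.335 and 0.393 times, and the peptide exchange chain gene H2-DMa at 0.182 and 0.163 times. Cd74, the invariant chain, was at 0.506 and 0.534 times, although the rule set a minimum for it. Of 17 class I genes, 6 were higher, beside a background of 8.09%, and none was lower. The higher genes included B2m at 2.43-fold and 2.31-fold and the proteasome activator Psme2 at 4.65-fold and 3.86-fold. H2-K1 and H2-Q4 belong to a family of similar genes whose reads can be split between copies.

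**Figure D4:**
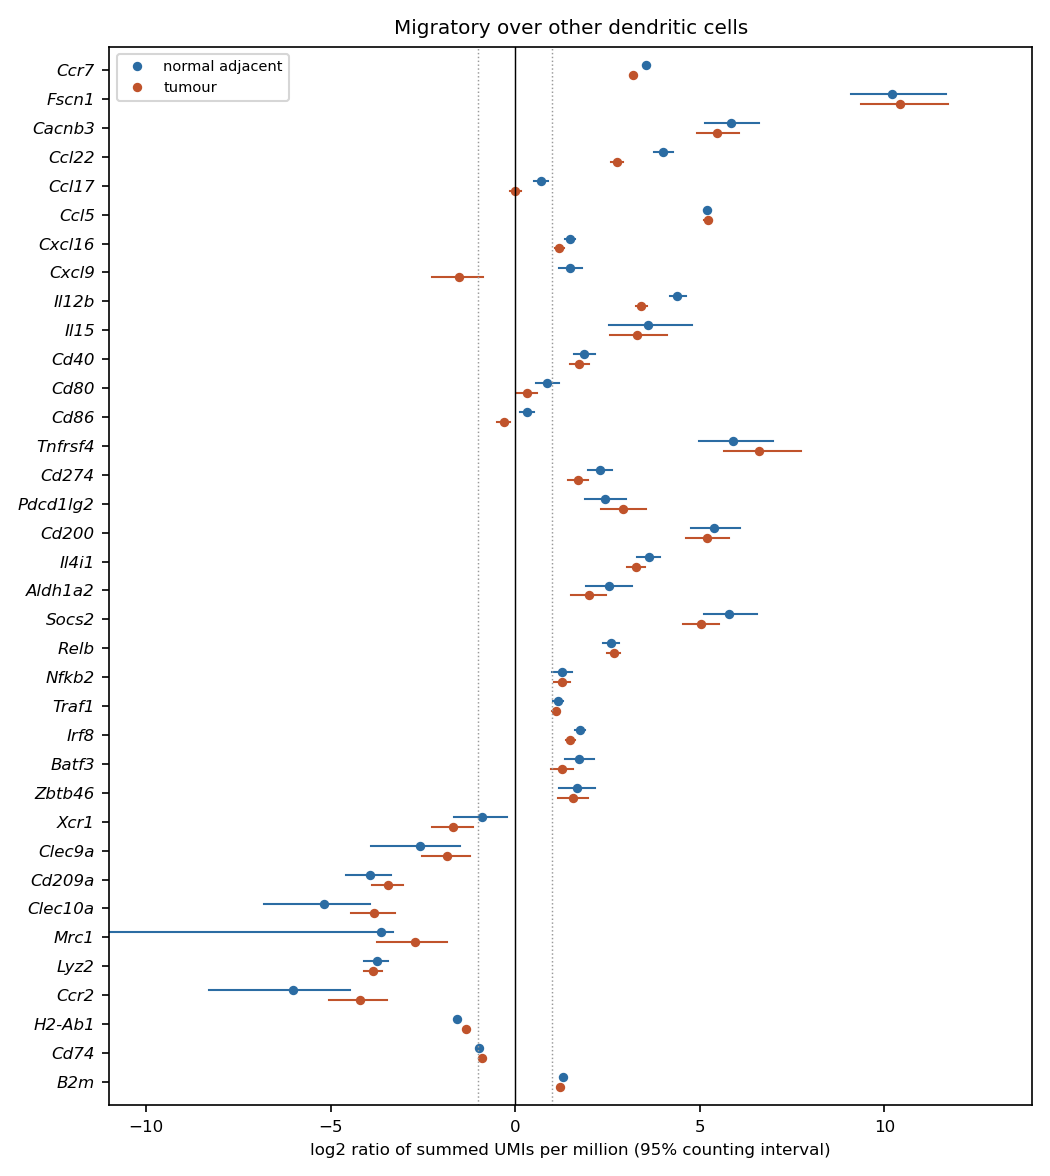
Log2 ratio of summed CPM, migratory over other dendritic cells (horizontal axis), by gene and library, with 95% counting intervals; dotted lines mark 2-fold, and intervals reach the axis edge where a class had no UMI. Ccl5, Il12b, Cd200 and Relb lie to the right in both libraries, Lyz2 and Ccr2 to the left, and Cxcl9 and Cd86 lie on opposite sides in the 2 libraries.

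Lineage genes gave a mixed picture. Irf8 and Batf3, transcription factors needed for conventional type 1 dendritic cells, were 3.40-fold and 2.80-fold, and 3.33-fold and 2.41-fold, higher in members. They were the 2 higher genes of 13 in that list, and 8 were lower, beside backgrounds of 8.09% and 12.7%. Of 12 genes shared by dendritic cells, Zbtb46 and Id2 were higher in both libraries and Itgax, Bcl11a and Batf lower, beside backgrounds of 8.09% and 12.7%. The list medians were 0.16 and 0.04. Flt3, which the rule for other dendritic cells used, belongs to this list. Transcripts of the type 1 receptors Xcr1 and Clec9a were found in 10 of 59 and 16 of 96 members. Transcripts of Cd209a, Clec10a or Mgl2, carried by type 2 cells, were found in 9 and 11. Both sets were found together in 1 member of each library. Among members without Xcr1 and Clec9a, the type 2 transcripts were found in 8 of 49 and 10 of 80. Counts this small cannot tell whether the 2 sets exclude each other. Without thinning, Il12b had a UMI in 39 of 59 and 68 of 96 members. Of the members with Xcr1 or Clec9a, 9 of 10 and 15 of 16 also held Il12b. Il12b-negative members with Xcr1 or Clec9a numbered 1 of 20 and 1 of 28. Deeper cells can show both by depth alone, and the part of depth was not tested. Thinned to 2000 UMIs, Xcr1 or Clec9a was detected in 2 of 58 and 5 of 95 members, too few for a comparison.

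Tcf7, a transcription factor best known from T cells, was detected in 20 of 59 and 41 of 96 members but in 2 of 189 and 0 of 288 other dendritic cells. Its level was 64.1 and 76.5 CPM in members and 43.4 and 44.9 CPM in gated T cells. The ratio to other dendritic cells was 94.8 (24.9 to 803) in normal adjacent tissue and at least 108-fold in tumour, against a floor of 3 counts over the class. The rule limits the Cd3 chains in members, so their low counts say nothing about the source of Tcf7, which was not tested.

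By the ratio to the highest of the other gated classes (other dendritic cells, C1q macrophages, neutrophils, B cells and T cells), the most particular genes were Nudt17, Fscn1, Cacnb3, Tmem150c, Eno3, Tm4sf5, Lad1, Scin, Bcl2l14 and Laptm4b. Epithelial cells, fibroblasts and NK cells were not among these classes, so levels in them do not enter the ratio. The place of Fscn1 follows from the rule, which required it in members and limited it in other dendritic cells. Nudt17 was 65.9 times the next class in the library where that ratio was smaller. Eno3, the muscle enolase, reached 20.5 times, with 256 and 320 CPM in members. Scin, which encodes the actin-severing protein scinderin, reached 18.2 times and was detected in 19 and 42 members.

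Across members, the class II genes varied together. Spearman's rho between H2-Aa and H2-Eb1 was 0.95 over 59 cells and 0.96 over 96. Ccl5 ran against Cd74, with rho of -0.65 and -0.61, and Serpinb6b against H2-Ab1, with -0.57 and -0.63. These are descriptions over cells of 1 library each, which share depth and a fixed total per cell.

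In the comparison of tissues, 304 of 4162 genes with at least 50 UMIs in members (7.3%) were at least 1.5-fold higher in tumour members and 177 (4.25%) were at least 1.5-fold lower, with a median log2 ratio of 0.04. Several of the genes with the largest ratios were carried by 1 cell. Epithelial genes led the higher group: Krt8, a keratin, was at 107 CPM in tumour and 4.93 CPM in normal adjacent members, but 1 cell held 96.3% of the tumour UMIs. Fibroblast genes led the lower group: Sparc, a matrix protein gene, was at 438 CPM in normal adjacent and 15.1 CPM in tumour members, and 1 cell held 95.2% of the normal adjacent UMIs. The tumour Clu and Gzmc totals rested on 1 cell for 93.5% and 86.0%. Their part in other differences was not tested.

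At least 3 UMIs of the markers of NK, plasma, mast or basophil, epithelial, fibroblast or endothelial cells or of neutrophils, 7 lineages in all, were found in 12 of 59 and 17 of 96 members. All 6 epithelial markers were detected in members of each library, at summed levels of 0 to 4.14 per 10000 per cell in normal adjacent tissue and 0 to 114 in tumour. All 6 fibroblast markers were detected too, at 0 to 207 and 0 to 82.6. Medians were 0 for both lists in both libraries. The B cell gene Fcmr was at 0 in the members of both libraries, while Ighm counted 18 UMIs in normal adjacent and 121 in tumour members. With these cells left out, a choice made after seeing the data, the ratios of Krt8, Clu, Gzmc and Sparc changed sides, to log2 values of -1.54, -0.84, -0.17 and 1.18 after adding 0.5 UMI to each sum.

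Macrophage, monocyte and B cell markers are not among the 7 lineages, and cells holding them were kept: 3 UMIs or more were found in 16 and 27 members for macrophage, 6 and 11 for monocyte, and 1 and 18 for B cell markers.

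Il1b, an inflammatory cytokine gene, was at 828 CPM in normal adjacent and 1719 CPM in tumour members. The ratio was 2.08-fold (1.90 to 2.27), and 1.84-fold (1.68 to 2.03) without cells of the 7 lineages. Neutrophil markers moved with it: their summed level was 71.5 CPM in normal adjacent and 383 CPM in tumour members, 1 cell held 44.5% of the latter, and Cxcr2 and Mmp9 were at 0 in normal adjacent tissue. Their part in the Il1b difference was not tested beyond leaving out cells of the 7 lineages. Single-cell Il1b medians were 2.20 and 7.50 per 10000, and the ranges, 0 to 45.5 and 0 to 142, overlapped. In other dendritic cells the tumour to normal adjacent ratio was 1.14 (1.11 to 1.17). Apoe, a lipid carrier gene, was 2.11-fold (1.80 to 2.47) higher in tumour members, 2.52-fold (2.08 to 3.08) without cells of the 7 lineages, and 2.43-fold (2.27 to 2.60) higher in other tumour dendritic cells. H2-Ab1 was 1.36-fold (1.30 to 1.42) higher in tumour members and 1.35-fold (1.29 to 1.43) without those cells. Apoe is abundant in macrophages, whose markers were summed at 161.5 CPM in normal adjacent and 204 CPM in tumour members, and their part was not tested.

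Interferon response genes were lower in tumour members. Of 11 measured, 10 had lower values, and the share of all genes with a lower value was not counted. At least 1.5-fold lower were 5 of them (Isg15, Ifit3, Irf7, Stat2 and Ifih1), beside a background of 4.25% for 1.5-fold calls. The list's median log2 ratio was -0.52 (-0.94 without cells of the 7 lineages), beside 0.04 over all genes. Isg15, a ubiquitin-like effector, was at 603 CPM in normal adjacent and 336 CPM in tumour members, 0.558 times (0.488 to 0.637) and 0.460 (0.396 to 0.532) without those cells, while other dendritic cells gave 1.18 (1.06 to 1.31). Single members ranged from 0 to 84.8 and from 0 to 56.6 per 10000, with medians of 0.981 and 0.731, so the libraries overlapped. Ifit1 went the other way, at 2.85-fold (1.67 to 5.15), but at 0.697 (0.335 to 1.46) without those cells. Cxcl9, an interferon-induced chemokine, was at 182 CPM in normal adjacent members, 57.4% of it from 1 cell, and 16.7 CPM in tumour members, 0.0917 times (0.0551 to 0.145) and 0.0301 (0.0119 to 0.0636) without those cells.

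All 11 measured inhibitory and immunoregulatory genes had lower values in tumour members, with a median log2 ratio of -0.42, beside 0.04 over all genes. The share of all genes with a lower value was not counted. Of the 11, 2 (Socs1 and Socs3) were at least 1.5-fold lower, beside a background of 4.25%. Cd274 was at 0.747 times (0.615 to 0.907), or 0.577 (0.459 to 0.725) without cells of the 7 lineages, against 1.12 (0.909 to 1.38) in other dendritic cells. It was detected in 52 of 59 normal adjacent and 64 of 96 tumour members, but thinned to 2000 UMIs in 36.2% and 31.6%, against 4.89% and 8.07% of other dendritic cells and 26.2% and 26.9% of neutrophils, whose median depths were 2805 and 2240 UMIs. Pdcd1lg2 was at 0.729 times (0.522 to 1.02), or 0.619 without those cells, and Socs1 at 0.565 times (0.421 to 0.757), or 0.442. Ccl5 was at 0.753 times (0.731 to 0.777) in members, 0.617 without those cells, and at 0.747 times (0.676 to 0.826) in other dendritic cells. Nfkbia, an NF-kappaB inhibitor gene that NF-kappaB itself induces, was at 0.692 times (0.646 to 0.741), or 0.650 without those cells.

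Markers and maturation genes were compared between tissues in the same way. Relb was at 1.04 times (0.918 to 1.17), Il4i1 at 0.935 (0.818 to 1.07), Cacnb3 at 0.905 (0.775 to 1.06) and Ccl22 at 0.855 (0.777 to 0.942), or 0.945 (0.848 to 1.05) without cells of the 7 lineages. Of 23 maturation genes, 17 had lower values in tumour, with a median log2 ratio of -0.14, beside 0.04 over all genes. Here too, the share of all genes with a lower value was not counted. Only 1 of them, Apol7c, was past 1.5-fold, at 0.612 times (0.437 to 0.857), beside a background of 4.25%. Il12b was at 0.811 times (0.751 to 0.876). With 1 library a tissue, a difference of tissue, animal, dissection or library preparation cannot be told apart.

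**Figure D5:**
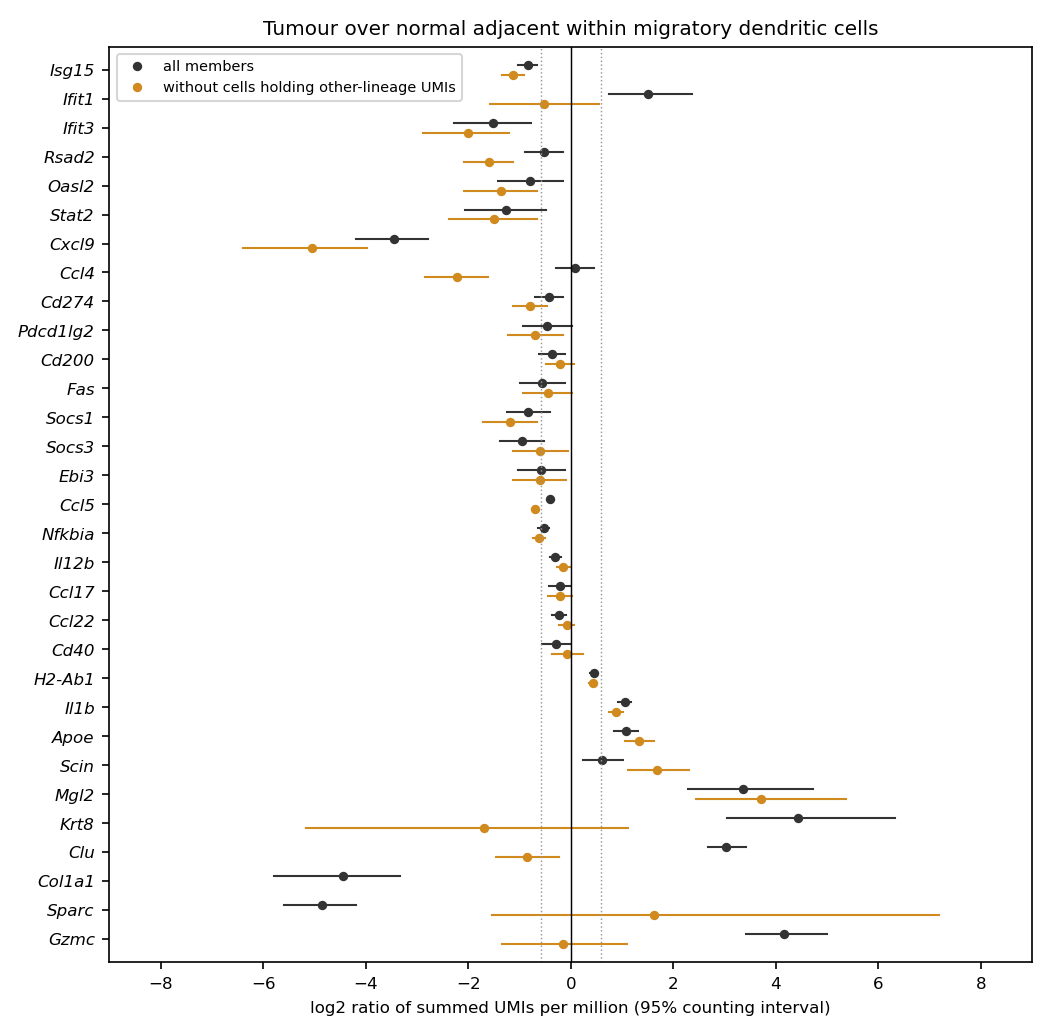
Log2 ratio of summed CPM, tumour over normal adjacent, within migratory dendritic cells (horizontal axis), for all members and after leaving out cells with at least 3 UMIs of 1 of the 7 other lineages; bars are 95% counting intervals and dotted lines mark 1.5-fold. Col1a1 has no second point because its counts in both libraries were then at or under the floor of 3. Krt8, Clu, Gzmc and Sparc change sides, Isg15 and Cd274 stay lower, and Il1b and Apoe stay higher.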

How the data were processed

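Single-cell RNA was measured in 1 library of mouse prostate tumour and 1 of the normal tissue beside it. The deposited matrices hold UMI counts for each gene in each barcode; per the file headers, Cell Ranger 4.0.0 made them. The submitters' processing notes also name R 4.0.3, Seurat 3.2.2 and GRCh38, a human build, although the features are mouse genes. Not given in the sources used here: the mouse build, the annotation and the cell-calling parameters.

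Counts of 32285 genes were summed over the cells of each class and library with Python 3.11.15, NumPy 2.4.6, SciPy 1.17.1, pandas 2.3.3 and matplotlib 3.10.9, and expressed as CPM. CPM intervals are exact Poisson, ratios exact conditional binomial, shares Clopper-Pearson, and differences of shares Newcombe. Gated comparison classes used at least 3 UMIs of Cd79a (B cells) or the Cd3 chains (T cells), 0.5% C1q (macrophages) or 1% S100a8 and S100a9 (neutrophils). List medians used log2 ratios with 0.5 UMI added. No doublet caller was run; cells with UMIs of another lineage were kept and then left out as an alternative. The ratio code was tested on simulated data, and thinning was checked for its total per cell.

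Members and lists were chosen with earlier results of these data known. Of 316 list genes, 310 had a unique row. Named genes were list members plus the 15 highest and 10 lowest against other dendritic cells, 12 each way between tissues and the 10 most particular, ranked by the nearer interval bound with at least 50 UMIs and 50 CPM. The same ranking without cells of other lineages was added after seeing the data. Results for some genes are not reported here. Of the 15, Pakap has 2 gene entries and is not reported. The 11 alternatives covered gate limits, depth, weighting, scaling and gene minimum.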

Additional observations from a re-analysis of the deposited data

Results flagged for a closer look

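For 10 named genes the ratio of members to other dendritic cells lay on opposite sides of 1 in the 2 libraries, with both counting intervals clear of 1. The difference between libraries was not tested, and each tissue has 1 library. Values are log2 ratios, normal adjacent and then tumour. Cd86, a ligand of Cd28, gave 0.32 and -0.32, and AA467197 gave 0.80 and -0.46. Cxcl9, an interferon-induced chemokine, gave 1.49 and -1.53. Tnf, an inflammatory cytokine, gave -1.63 and 0.61, and 1 tumour member held 54.5% of its UMIs. Gzmc, a granzyme, gave -5.43 and 0.32. The matrix and stromal genes Col1a1 (8.48 and -1.30), Sparc (8.75 and -1.03), Serpinh1 (7.77 and -1.64), Serping1 (6.53 and -1.77) and Gsn (1.54 and -1.48) were each carried for at least 70% of the normal adjacent UMIs by 1 member. The value of Serping1 in normal adjacent tissue is a bound, since other dendritic cells held 0 UMIs.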

How the results depend on the processing

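No paired analysis was possible because each group holds 1 library. The share differences between tissues kept within their intervals in 10 of 10 alternative results. They ran from 0.202 to 0.286 points of retained cells and from 0.0113 to 1.37 points of gated dendritic cells. The intervals were wide (-0.0671 to 0.630 and -5.77 to 7.89 points), so staying within them is a weak check. A minimum of 500 genes per cell left the 59 and 96 members and the gene counts unchanged. Its results could hardly differ, and they are included in the totals given here. Gene counts stayed within 1.5 times in 35 of 44 alternative results. Thinning to 2000 UMIs, which leaves fewer genes above the minimum, gave 279 higher and 409 lower genes against other dendritic cells and 43 and 37 between tissues. Between tissues, a minimum of 20 UMIs gave 884 and 508, a minimum of 100 UMIs 98 and 78, and leaving out each gene's top cell gave 110 lower genes. List medians kept their direction and size in 602 of 660 results. Single-gene log2 ratios did so in 498, moved in 134 and reversed in 16. Cells of other lineages here means the 7 lineages named above, without macrophages, monocytes or B cells. The lipid list in tumour, -0.47 against other dendritic cells, changed sign to 0.37 with a 1-UMI gate, 0.68 without cells of other lineages, 0.64 when thinned, 0.0211 at 20 UMIs and 0.51 at 100 UMIs. The cytokine list in normal adjacent tissue changed to 0.0031 without cells of other lineages, and the cell cycle list between tissues to -0.0244 with equal cell weights. Without cells of other lineages the log2 tissue ratios reversed for Bgn (2.12), Clu (-0.84), Col1a1 (0.89), G0s2 (-0.0396), Gzmc (-0.17), Krt8 (-1.54), Mfap4 (0.89), Mgp (1.54), Pigr (-1.05), Serping1 (1.63), Sparc (1.18), Sparcl1 (1.63) and Tspan1 (-0.69). These ratios have 0.5 UMI added and rest on few UMIs; Col1a1 then had 0 UMIs in normal adjacent tissue and 1 in tumour. Without the top cell they reversed for Clu (-0.50), Pigr (-1.27) and Tspan1 (-0.61). Where not stated, the cause was not tested. Genes with few UMIs in 59 and 96 cells are limited by counting.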

Other observations

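Fabp5 and Cd63 stood out among lipid and vesicle genes. Fabp5, a fatty acid carrier, was at 1681 and 2007 CPM in members against 101 and 104 CPM in other dendritic cells, ratios of 16.6 (14.7 to 18.9) and 19.3 (17.4 to 21.4). Cd63, a tetraspanin of late endosomes, was at 1492 and 1268 CPM against 45.6 and 88.0 CPM, ratios of 32.7 (27.3 to 39.3) and 14.4 (12.9 to 16.2). Both were found in most members, Fabp5 in 51 of 59 and 86 of 96, and Cd63 in 56 and 94.

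Sct, the secretin gene, had 52 UMIs in 4 normal adjacent members and 20 UMIs in 4 tumour members, with 85.0% of the latter in 1 cell.

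Among lists of cell state, none of 17 dissociation stress genes was past 2-fold in both libraries in either direction, beside backgrounds of 8.09% and 12.7%. Median log2 ratios of that list were -0.58 and -0.66 against other dendritic cells. In tumour alone 5 of the 17 were at least 2-fold lower (Egr1, Ier2, Ier3, Hspa1a and Nr4a1), and in normal adjacent tissue none was. Of 12 glycolysis and hypoxia genes 3 were lower, and of 12 cell cycle genes 1 was lower, beside a background of 12.7%, and neither list had a higher gene. By library, 8 of the 12 cell cycle genes were at least 2-fold lower in normal adjacent tissue (median log2 ratio -1.60) and 2 in tumour (-0.56). Medians over all genes were -0.14 and -0.10. The share of all genes past 2-fold in a single library was not counted, for this list or the stress list. Mki67 or Top2a had a UMI in 30.5% and 19.8% of members, against 31.75% and 33.3% of other dendritic cells. Il10 and Ido1, a tryptophan-degrading enzyme gene, counted 1 UMI each in normal adjacent members and 1 and 3 UMIs in tumour members.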
